A study of Oryza sativa with 13 samples.

Results

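The DNA methylation peaks of rice endosperm at 6 days after pollination (DAP) were compared with those at 3 DAP. Both libraries came from the cultivar ZH-11 (Zhonghua11, japonica), grown in a phytotron, and each stage was 1 library without replicates. The peaks were chosen by library: every peak in the deposited list of either library was a member, which gave 73382 of the 302642 peaks in the 7 ZH-11 lists. A 6 DAP peak without 1 bp of overlap with any 3 DAP peak is called gained, a 3 DAP peak without 1 bp of overlap with any 6 DAP peak is called lost, and the others are called kept. These words name the overlap of 2 lists. They do not show that DNA at a site was methylated at one stage and unmethylated at the other, because a site just under the limit of the peak caller is also absent from a list.

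The endosperm was dissected by hand from developing seeds, and methylated fragments were captured with an antibody against 5-methylcytosine and sequenced (MeDIP-seq). The labels do not say how many seeds went into a library. The other 5 ZH-11 libraries, endosperm at 2 and 9 DAP and embryo at 3, 6 and 9 DAP, played no part in choosing gained, lost and kept peaks and were used to follow them. A peak list holds no gene names, so the labelled tissue was not checked against marker genes.

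Endosperm is the tissue that feeds the embryo in a cereal grain. In rice it first divides as a multinucleate syncytium, then forms cells, and later fills with starch and storage protein. Plant DNA carries 5-methylcytosine in CG, CHG and CHH contexts, mostly over transposons and repeats, and an antibody does not tell these contexts apart. Rice endosperm is known for lower methylation than the embryo at many sites. Part of that difference goes back to the central cell before fertilisation, where the DNA glycosylase ROS1a removes methylation from maternal chromosomes.

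Both libraries were of nearly equal depth, with 7302523 filtered tags at 6 DAP and 7268516 at 3 DAP, where a tag is 1 aligned read. Of these tags, 57.9% lay in peaks at 6 DAP and 57.4% at 3 DAP. The 6 DAP list held 36871 peaks over 47.3 Mb and the 3 DAP list 36511 peaks over 46.8 Mb. The quartiles of peak length were 751 and 1482 bp at 6 DAP, and 735 and 1491.5 bp at 3 DAP. Peaks of at least 3 kb numbered 1924 at 6 DAP and 1988 at 3 DAP. The overall tag density inside peaks was 12.2 tags per 1000000 filtered tags (RPM) per kb at 6 DAP and 12.3 RPM per kb at 3 DAP.

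Most methylation peaks of the endosperm were listed at both stages, and those listed at 1 stage were divided nearly equally between 6 and 3 DAP. Gained peaks numbered 6323, or 17.1% of the 6 DAP list (95% exact binomial interval 16.8 to 17.5). Lost peaks numbered 5730, or 15.7% of the 3 DAP list (15.3 to 16.1). The gained peaks covered 5.68 Mb and the lost peaks 5.60 Mb. Intervals cover counting error only, since amplified reads and neighbouring peaks are not independent, and with 1 library a stage no test between the stages could be made.

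Counted in bases, the 2 lists shared 37.2 Mb, which was 78.5% of the covered length at 6 DAP and 79.3% of that at 3 DAP. A further 10.2 Mb was covered at 6 DAP alone and 9.67 Mb at 3 DAP alone. Of these, 4.48 Mb at 6 DAP and 4.08 Mb at 3 DAP belonged to kept peaks whose edges reached beyond the peak of the other stage. The rest belonged to gained and lost peaks.

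Gained and lost peaks were weaker and shorter than kept ones. The median gained peak was 757 bp long with 46 tags, against 1067 bp and 86 tags in the kept peaks of the 6 DAP list. The median lost peak was 750 bp long with 43 tags, against 1031 bp and 82 tags in the kept peaks of the 3 DAP list. Per kb of peak, the median tag density was 8.47 RPM in gained and 10.9 RPM in kept peaks at 6 DAP, and 8.11 RPM in lost and 10.8 RPM in kept peaks at 3 DAP. Gained peaks held 9.72% of the tags in peaks at 6 DAP, and lost peaks held 9.97% of those at 3 DAP.

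**Figure D1:**
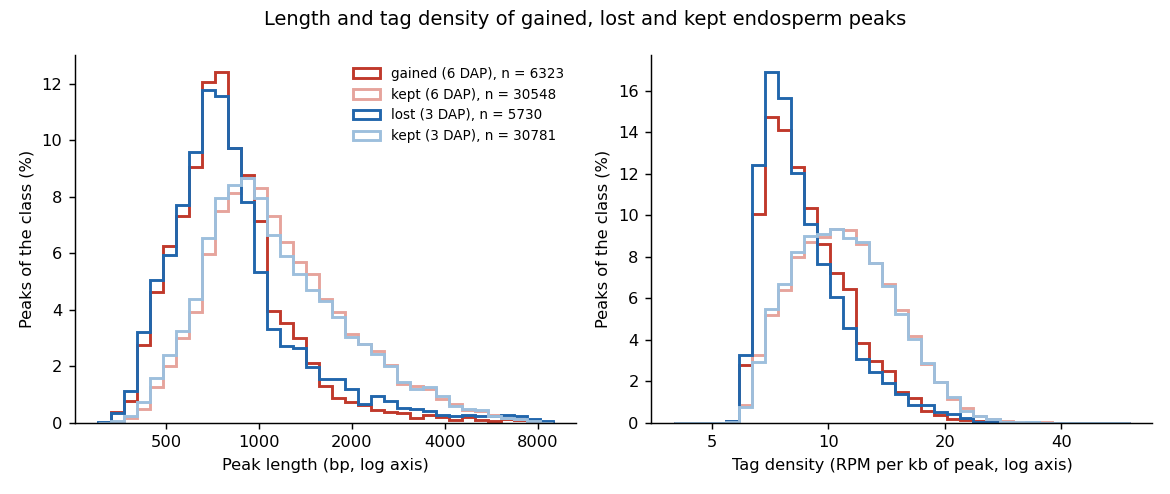
Distribution of peak length (left, bp, log axis) and tag density (right, RPM per kb of peak, log axis) in gained and kept peaks of endosperm at 6 DAP and in lost and kept peaks at 3 DAP, as a percentage of each class. Gained and lost peaks have nearly the same distributions, with medians of 757 and 750 bp, and lie to the left of the kept peaks, whose medians are 1067 and 1031 bp.

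The deposited score of a peak is its p-value as a scaled negative logarithm, and the limit of the peak caller, a p-value of 1e-05, lies at a score of 50. Of the gained peaks 72.9% had a score under 100, as had 84.5% of the lost peaks, against 27.9% of the kept peaks at 6 DAP and 28.5% of those at 3 DAP. Scores from 50 up to 75 gave a gained share of 41.9% and a lost share of 43.0%, close to each other. The 2 shares then parted. Between 150 and 200, 386 of 4724 peaks at 6 DAP were gained (8.17%, interval 7.41 to 8.99), whereas 119 of 4603 peaks at 3 DAP were lost (2.59%, 2.15 to 3.09). Between 200 and 300 the shares were 3.88% gained and 0.696% lost. The intervals of the gained and lost shares did not overlap in any of the 4 score ranges from 100 to 500. Peaks with a score of at least 100 were also looked up with any score allowed at the other stage. Of these, 1712 of 23750 at 6 DAP were gained (7.21%) and 889 of 22904 at 3 DAP were lost (3.88%).

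**Figure D2:**
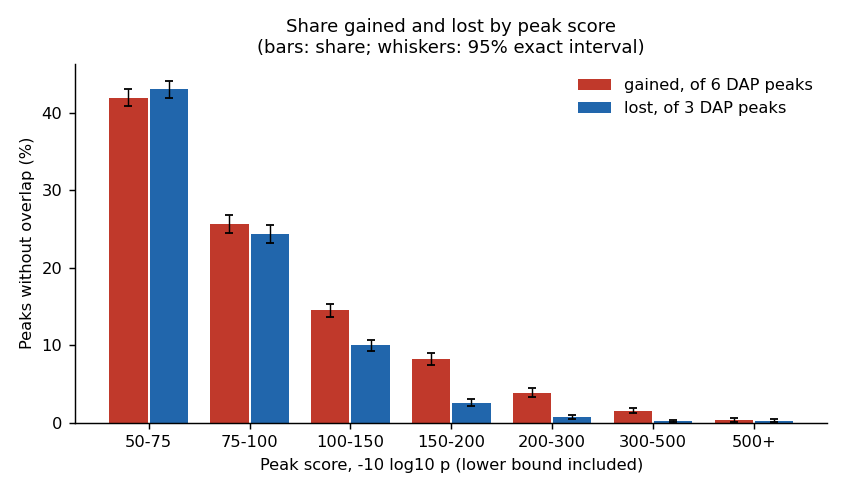
Share of 6 DAP endosperm peaks that were gained and of 3 DAP peaks that were lost, by deposited peak score (bars, with 95% exact binomial intervals as whiskers). The shares are alike at scores of 50 to 75 (41.9% and 43.0%) and the gained share is the larger one at scores from 100 to 500, such as 3.88% against 0.696% at 200 to 300.

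Few members lay near the limit of the overlap rule, measured as distance to a peak of the other stage. A peak of the other stage lay within 50 bp of 74 gained and 76 lost peaks. Conversely, 36 kept peaks at 6 DAP and 25 at 3 DAP overlapped the other list by at most 50 bp. The gained peaks just outside the rule had a median of 6.23 RPM and 771.5 bp, and the kept 6 DAP peaks just inside it 6.71 RPM and 797 bp. For 3 DAP these medians were 5.98 RPM and 755 bp for lost peaks just outside, and 7.15 RPM and 864 bp for kept peaks just inside. In distance, most members were far from this limit. The median gap was 2282 bp between a gained peak and the nearest 3 DAP peak, and 2124 bp between a lost peak and the nearest 6 DAP peak. These gaps do not tell how near a site came to the score limit of the peak caller.

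Kept peaks corresponded closely. Of the kept peaks, 96.8% at 6 DAP and 97.6% at 3 DAP overlapped exactly 1 peak of the other list, and the median kept peak had 95.2% of its length covered at 6 DAP and 95.7% at 3 DAP. Merging overlapping or touching peaks of the 2 lists gave 41853 regions, of which 29800 held peaks of both stages. In 28256 of these a single 6 DAP peak met a single 3 DAP peak. The summits of such pairs, the positions of the highest tag pile, lay 37 bp apart in the median, and 75.5% were within 100 bp. In 14365 pairs the 6 DAP peak was the longer one, in 13822 the shorter one, and the median change in length was 3 bp. In 801 regions 1 peak at 6 DAP spanned several at 3 DAP, and in 579 regions several peaks at 6 DAP lay where 3 DAP had 1.

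Among the kept regions, more had at least 2-fold higher than at least 2-fold lower tag levels at 6 DAP, but both groups were small. The level of a region was the sum of tags in its peaks per 1000000 filtered tags. The median level was 12.1 RPM at 6 DAP and 11.6 RPM at 3 DAP, and the median log2 ratio of 6 over 3 DAP was -0.01, with quartiles of -0.22 and 0.25. A level at least 2-fold higher at 6 DAP was found in 863 regions (2.90%), and one at least 2-fold lower in 315 regions (1.06%). The median level of the higher regions was 17.4 RPM at 6 DAP and 6.88 RPM at 3 DAP. In the lower regions it was 8.76 RPM at 6 DAP and 20.1 RPM at 3 DAP.

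Much of these differences lay in how far the called peak extended. In the higher regions the median covered length was 1433 bp at 6 DAP and 813 bp at 3 DAP, while the median density was 12.2 RPM per kb at 6 DAP and 8.46 at 3 DAP. In the lower regions the covered length was 914 bp at 6 DAP and 2036 bp at 3 DAP, with densities of 9.34 RPM per kb at 6 DAP and 10.2 at 3 DAP. Counted as tags per kb of peak, 108 regions were at least 2-fold higher and 11 at least 2-fold lower. With a score of 100 or more required in both lists, 18561 kept regions were left. Of these, 435 were at least 2-fold higher (2.34%) and 169 at least 2-fold lower (0.911%).

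**Figure D3:**
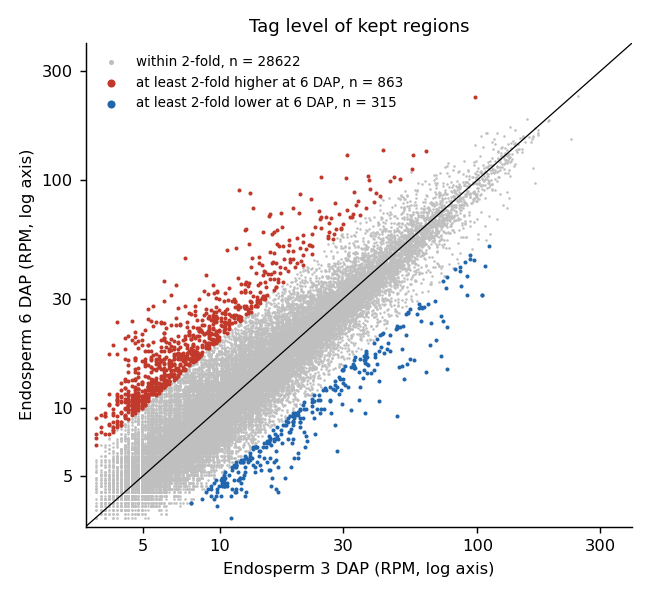
Tag level of the 29800 kept regions in endosperm at 6 DAP (vertical, RPM, log axis) against 3 DAP (horizontal, RPM, log axis), 1 point a region, with the line of equal levels. Most regions lie along the line, 863 lie at least 2-fold above it and 315 at least 2-fold below it.

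The highest ratios belonged to regions where a short 3 DAP peak lay inside a long 6 DAP one. Positions follow the deposited lists, whose headers name no genome build. The lists give tags for whole peaks only. A level in another library is therefore that of the overlapping peaks, which can reach beyond the stated positions. The region on chromosome 10 from 4392269 to 4397600 had 656 tags at 6 DAP and 86 at 3 DAP, a ratio of RPM of 7.59 (95% exact conditional interval 6.06 to 9.62). Its peak covered 5332 bp at 6 DAP and 771 bp at 3 DAP. The other endosperm stages had levels near that of 6 DAP, with 71.1 RPM at 2 DAP and 86.7 RPM at 9 DAP beside 89.8 RPM at 6 DAP, and 3 DAP had 11.8 RPM. On chromosome 4 from 16338661 to 16343813 there were 639 tags at 6 DAP and 95 at 3 DAP (ratio 6.69, 5.39 to 8.40). Here 2 DAP had 92.9 RPM but 9 DAP had no listed peak.

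The next region, on chromosome 8 from 18414557 to 18417712, had 45.6 RPM at 6 DAP and 7.29 RPM at 3 DAP, with 132 RPM at 2 DAP and 31.6 RPM at 9 DAP. On chromosome 3 from 13850447 to 13853000 the level was 23.8 RPM at 6 DAP and 3.99 RPM at 3 DAP, and none of the 3 embryo lists had a peak there. On chromosome 4 from 20585218 to 20586733 it was 36.01 RPM at 6 DAP and 6.05 RPM at 3 DAP.

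The lowest ratios had the opposite form, a long peak at 3 DAP and a short one at 6 DAP. The lowest lay on chromosome 7 from 2107905 to 2111206, with 67 tags at 6 DAP and 355 at 3 DAP (ratio 0.188, interval 0.142 to 0.244). The peak covered 884 bp at 6 DAP and 3302 bp at 3 DAP, and the levels were 9.17 RPM at 6 DAP and 48.8 RPM at 3 DAP. At 2 and 9 DAP this region had 48.1 and 47.7 RPM. On chromosome 9 from 10000827 to 10006510 there were 108 tags at 6 DAP and 553 at 3 DAP (ratio 0.194, 0.157 to 0.239). The other 3 were on chromosome 4 from 3504285 to 3507508, chromosome 5 from 14444192 to 14448106 and chromosome 2 from 34548886 to 34554957, with ratios of 0.226 to 0.233. The other stages differed among these 3. The region on chromosome 4 had 6.58 RPM at 2 DAP and 20.6 RPM at 9 DAP, beside 6.44 RPM at 6 DAP. That on chromosome 5 had no 2 DAP peak and 48.4 RPM at 9 DAP, beside 14.4 RPM at 6 DAP. That on chromosome 2 had 82.1 RPM at 2 DAP and 15.7 RPM at 9 DAP, beside 16.8 RPM at 6 DAP. These 10 regions were taken for their ratios, so the ratios describe them and test nothing.

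The called regions were then followed at 2 and 9 DAP, where whole peaks were counted, also if they reached beyond the region. A peak that overlapped several regions was counted, with all its tags, in the first of them only. The other regions could thus be counted as without a peak, and how many were was not worked out. Their 3 and 6 DAP levels were used to call them and are given only as a description. Of the 863 higher regions, 715 were counted with a peak at 2 and at 9 DAP. Their median levels were 19.2, 6.88, 17.3 and 11.9 RPM at 2, 3, 6 and 9 DAP. Of the 315 lower regions, 199 were counted with peaks at both, with medians of 13.5, 23.1, 9.59 and 18.3 RPM in the same order. Over all 22536 kept regions counted with a peak at these stages, the medians were 13.8, 13.2, 13.8 and 13.1 RPM. The regions higher at 6 DAP thus had a 2 DAP median above that of all kept regions and a 9 DAP median below it.

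The libraries at 9 and 2 DAP were not used to call a region higher or lower. A level higher at 9 than at 2 DAP was found in 17.8% of the 715 regions that were higher at 6 DAP, in 71.9% of the 199 that were lower at 6 DAP, and in 50.8% of all 22536. At least 2-fold lower at 9 than at 2 DAP were 182 of the 715 (25.5%), against a background of 5.24% of all kept regions with these peaks. At least 2-fold higher were 46 of the 199 (23.1%), against a background of 3.09%. In these regions, with peaks counted in the first region only, the contrast of 9 with 2 DAP therefore ran mostly opposite to the contrast of 6 with 3 DAP. With 1 library a stage, the age of the tissue and the library cannot be told apart.

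Gained peaks were found far more often at 2 DAP than lost peaks were. A 2 DAP peak overlapped 55.6% of the gained peaks (54.3 to 56.8) and 28.5% of the lost peaks (27.4 to 29.7). A 9 DAP peak overlapped 46.5% of the gained peaks (45.2 to 47.7) and 48.03% of the lost peaks (46.7 to 49.3), 2 shares whose intervals overlapped. At scores from 50 up to 100, these shares were 37.7% of gained (36.3 to 39.2) and 44.0% of lost peaks (42.6 to 45.4), with intervals apart. From 100 up to 200 they were 65.9% and 69.6%, and at 200 or more 89.9% and 75.5%, with intervals that overlapped in each range. Kept peaks had a 2 DAP peak in 83.7% of cases in the 6 DAP list and 83.8% in the 3 DAP list, and a 9 DAP peak in 90.1% of cases in both. Fewer kept peaks had low scores, however. At scores from 50 up to 100, a 2 DAP peak was found for 59.0% of kept and 45.8% of gained 6 DAP peaks. At 3 DAP it was found for 65.1% of kept and 25.7% of lost peaks in that range. A 9 DAP peak was found there for 74.6% of kept 6 DAP and 74.8% of kept 3 DAP peaks. The 2 DAP list was the shortest of the endosperm lists, with 32986 peaks.

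Taken by pattern over the endosperm stages, 1879 gained peaks (29.7%) had a peak at both 2 and 9 DAP. Among the 4 endosperm lists they were thus missing from the 3 DAP list alone. A further 1634 (25.8%) had one at 2 but not at 9 DAP, 1059 (16.7%) at 9 but not at 2 DAP, and 1751 (27.7%) at neither. Among lost peaks, 960 (16.8%) were missing from the 6 DAP list alone of these 4 lists. Another 675 (11.8%) had a peak at 2 but not at 9 DAP, 1792 (31.3%) at 9 but not at 2 DAP, and 2303 (40.2%) at neither. The gained peaks absent at 2 and present at 9 DAP were the smallest of the 4 gained classes, and the lost peaks present at 2 and absent at 9 DAP the smallest of the 4 lost classes. The peaks found at neither 2 nor 9 DAP were the weakest, with a median of 5.07 RPM for gained and 5.37 RPM for lost peaks.

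The embryo lists went the other way. Gained peaks overlapped an embryo peak in 37.2%, 43.2% and 37.3% of cases at 3, 6 and 9 DAP, and lost peaks in 52.7%, 48.9% and 52.0%. The intervals of gained and lost peaks did not overlap at any of the 3 stages. Among the embryo lists the gained peaks were found most often at 6 DAP and the lost peaks least often at 6 DAP. Tag levels in embryo were then compared. Here too, a peak over several regions was counted in the first of them only. Of the higher kept regions, 503 were counted with embryo peaks at 6 and 3 DAP. In 367 of these (73.0%) the embryo level was higher at 6 than at 3 DAP. In the lower kept regions this was so in 53 of 222 (23.9%), and over all kept regions in 44.9% of 22919. Embryo and endosperm of the same age were separate libraries, and stage and library cannot be told apart in either.

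**Figure D4:**
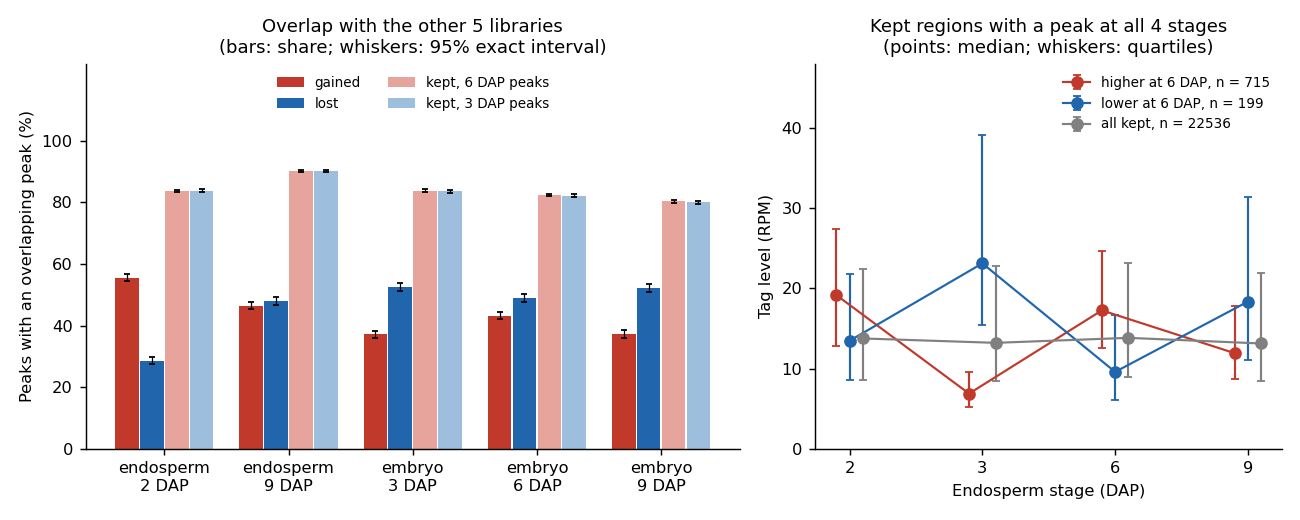
Left, share of gained, lost and kept endosperm peaks that overlapped a peak in each of the 5 ZH-11 libraries not used to define them (bars, with 95% exact binomial intervals as whiskers), where gained exceeds lost at endosperm 2 DAP (55.6% and 28.5%) and lost exceeds gained at each embryo stage. Right, tag level (RPM, median and quartiles) at 2, 3, 6 and 9 DAP in kept regions counted with a peak at all 4 stages, with medians of 19.2, 6.88, 17.3 and 11.9 RPM in regions higher at 6 DAP. A peak over several regions was counted in the first of them only.

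The few strong gained peaks were mostly ones that 3 DAP lacked while the other endosperm stages had them. A score of 200 or more was held by 288 gained peaks, 2.43% of the 11860 such peaks at 6 DAP (2.16 to 2.72), and by 49 lost peaks, 0.442% of the 11087 at 3 DAP (0.327 to 0.584). Of the 288, 276 had a peak at 2 DAP (95.8%, interval 92.8 to 97.8) 259 at 9 DAP (89.9%, 85.9 to 93.2) and 251 at both (87.2%). Kept 6 DAP peaks of such scores had higher shares, 99.0% at 2 DAP (98.8 to 99.1) and 99.3% at 9 DAP (99.1 to 99.4). In embryo only 92 of the 288 (31.9%) had a peak at 3 DAP, 159 (55.2%) at 6 DAP and 83 (28.8%) at 9 DAP, against 94.6%, 95.5% and 91.7% of the kept ones, and 119 (41.3%) had none at any embryo stage, against 2.20%. Their median length was 1127 bp and their median density 12.7 RPM per kb, beside 1411 bp and 13.8 RPM per kb in kept peaks. As a share of the peaks of such scores at 6 DAP they ran from 1.80% on chromosome 7 (18 of 998) to 3.79% on chromosome 6 (33 of 871).

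The 5 gained peaks with the highest scores, singled out after their values were seen, show this pattern. On chromosome 1 from 37943329 to 37944263, a 935 bp peak had 151 tags at 6 DAP, or 20.7 RPM, and a score of 774. Overlapping peaks had 20.2 RPM at 2 DAP and 11.9 RPM at 9 DAP. No embryo list had a peak there, and the nearest 3 DAP peak was 17368 bp away. A peak on chromosome 1 from 4231861 to 4233421 had 24.9 RPM at 6 DAP, with 33.95 RPM at 2 DAP and 5.89 RPM at 9 DAP. The third, on chromosome 1 from 42145455 to 42146749, had 21.1 RPM at 6 DAP, and the others lay on chromosome 2 from 17281266 to 17282946 (23.01 RPM) and chromosome 6 from 13966025 to 13967660 (24.1 RPM). All 5 had a peak at 2 DAP and at 9 DAP, and 1, 4 and 1 of them had one in the embryo lists of 3, 6 and 9 DAP.

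By score, strong lost peaks were fewer than strong gained ones, but by tag level the order was the other way. At 40 RPM or more, 108 of 2360 peaks at 6 DAP were gained (4.58%, 3.77 to 5.50) and 181 of 2491 at 3 DAP were lost (7.27%, 6.28 to 8.36). From 20 to 40 RPM the shares were 3.82% gained (3.34 to 4.35) and 4.81% lost (4.26 to 5.41), with intervals that overlapped. The 49 lost peaks with a score of 200 or more had a median length of 2455 bp and 43.5 RPM, against 1427.5 bp and 18.99 RPM in kept 3 DAP peaks of such scores. In embryo 89.8%, 81.6% and 85.7% of them had a peak at 3, 6 and 9 DAP, and in endosperm 59.2% at 2 DAP and 75.5% at 9 DAP. The kept ones had higher shares, 97.5%, 96.3% and 95.7% in embryo at 3, 6 and 9 DAP, and 98.0% and 99.5% in endosperm at 2 and 9 DAP. The highest score, 953, was on chromosome 12 from 20497608 to 20500956, with 787 tags or 108 RPM at 3 DAP, and none of the other 6 lists had a peak there. On chromosome 9 from 8735519 to 8738254 the level was 72.4 RPM at 3 DAP. The whole peaks that overlapped it had 137 RPM at 2 DAP and 58.7 RPM at 9 DAP. In embryo they had 51.5, 44.8 and 46.2 RPM at 3, 6 and 9 DAP. Among the 7 lists only endosperm at 6 DAP had no peak there, and its nearest one was 11431 bp away.

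Some of the longest methylated stretches appeared in 1 list only, with median densities near those of kept stretches of that size. Peaks of at least 3 kb made up 95 gained and 173 lost peaks, which is 4.94% of the 1924 such peaks at 6 DAP and 8.70% of the 1988 at 3 DAP. Both shares were below the 17.1% and 15.7% of all peaks. The median density was 14.8 RPM per kb in long gained peaks and 14.8 in long kept peaks at 6 DAP, and 14.9 RPM per kb in long lost peaks and 14.6 in long kept peaks at 3 DAP. Their scores were lower, with a median of 119 for gained against 240 for kept at 6 DAP, and 92.05 for lost against 229 for kept at 3 DAP. Their deposited fold enrichment was also lower, with a median of 3.86 for gained against 4.64 for kept at 6 DAP, and 3.64 for lost against 4.59 for kept at 3 DAP. The fold of a peak is taken over the tags within 10 kb in the same library, so that a dense stretch is set against its own surroundings. What part this setting of the caller had in their absence from the other list was not tested.

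Among the gained peaks the one with the most tags was also the longest. Spanning 7700 bp of chromosome 1 (16940762 to 16948461), it held 1237 tags or 169 RPM at 6 DAP (exact Poisson interval 160 to 179), a density of 22.0 RPM per kb and a fold enrichment of 3.31. No other endosperm list had a peak there, while the embryo lists had 38.95, 33.3 and 31.0 RPM at 3, 6 and 9 DAP. On chromosome 3 from 17180609 to 17187309, 155 RPM at 6 DAP stood beside 132 RPM at 9 DAP, and a 3 DAP peak lay 246 bp away. The peak on chromosome 5 from 29803312 to 29810209 had 155 RPM at 6 DAP and 117 RPM at 2 DAP, and all 3 embryo lists held peaks of 109 to 139 RPM. The others with the most tags were on chromosome 10 from 5106363 to 5113571 (146 RPM, with 134 RPM at 9 DAP) and chromosome 12 from 12171677 to 12178804 (145 RPM, with no peak at 2 or 9 DAP). The next longest lay on chromosome 1, from 16407212 to 16414807 (7596 bp) and from 9838101 to 9845366 (7266 bp).

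Of all lost peaks, that on chromosome 10 from 14244624 to 14251977 held the most tags, 1518 or 209 RPM at 3 DAP (198 to 220). Overlapping peaks had 184 RPM in endosperm at 9 DAP, and 112.7, 112.6 and 58.6 RPM in embryo at 3, 6 and 9 DAP. The density of this lost peak, 28.4 RPM per kb, was above the 90th percentile of kept 3 DAP peaks, 16.5 RPM per kb. The longest lay on chromosome 10 from 12905495 to 12914229 (8735 bp, 184 RPM) and was in none of the other 6 lists, and a 6 DAP peak lay 421 bp away. Of the next, on chromosome 2 from 33234479 to 33242346 (177 RPM), chromosome 6 from 26050923 to 26059200 (8278 bp, 175 RPM) and chromosome 11 from 14790825 to 14799439 (8615 bp, 173 RPM), none had an endosperm peak at 2 or 9 DAP. In embryo, the one on chromosome 2 had 96.1, 92.2 and 48.3 RPM at 3, 6 and 9 DAP. That on chromosome 11 had 150.5 RPM at 6 DAP and 27.4 RPM at 9 DAP, and that on chromosome 6 had no embryo peak. All 5 lost peaks had a fold enrichment between 2.33 and 3.48, below the median of 5.54 over all lost peaks.

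Gained and lost peaks were spread over all chromosomes at much the same rate. The gained share ran from 15.6% on chromosome 4 to 17.9% on chromosome 12, and the lost share from 14.2% on chromosome 10 to 17.3% on chromosome 6. On each of the 12 chromosomes more peaks were gained than lost, by 11 on chromosome 6 up to 94 on chromosome 10, where 463 were gained and 369 lost. The intervals of the gained and lost shares overlapped on every chromosome except chromosome 10. Covered length at 6 DAP relative to 3 DAP lay between 0.991 on chromosome 5 and 1.03 on chromosome 1. The sequences named Sy and Un had 6 and 0 gained and 7 and 0 lost peaks. Kept regions at least 2-fold higher at 6 DAP made up 2.38% on chromosome 9 to 3.56% on chromosome 3, and those at least 2-fold lower 0.631% on chromosome 6 to 1.49% on chromosome 10.

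**Figure D5:**
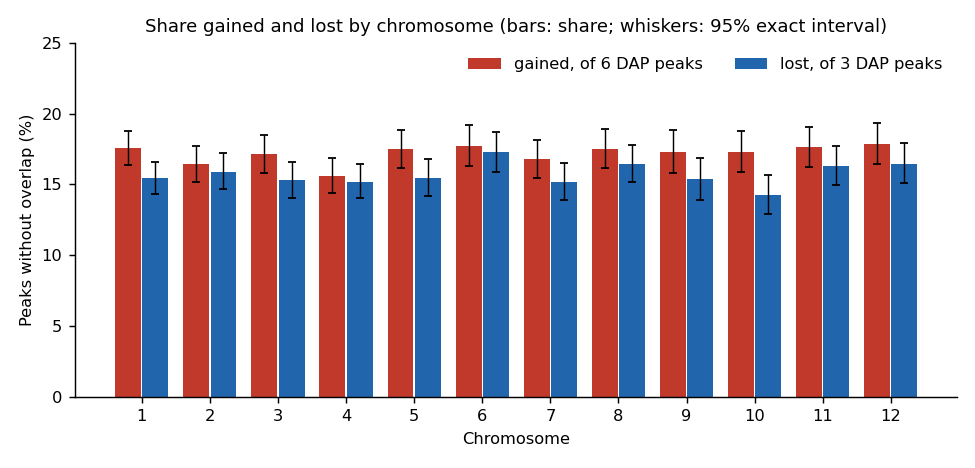
Share of 6 DAP endosperm peaks that were gained and of 3 DAP peaks that were lost on each of the 12 rice chromosomes (bars, with 95% exact binomial intervals as whiskers). The gained share lies between 15.6% and 17.9% and exceeds the lost share, 14.2% to 17.3%, on each chromosome, but the intervals overlap on all except chromosome 10.

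Along the chromosomes, 367 bins of 1 Mb were ranked by the peak coverage of the 5 libraries that were not compared. In quintiles ordered from low to high coverage, the gained share was 18.5%, 17.6%, 17.6%, 17.1% and 15.9%, and the lost share was 16.6%, 15.5%, 16.4%, 15.2% and 15.3%. The quintile with the highest coverage had 0.861 times the gained share of the lowest (15.9%, interval 15.2 to 16.6, and 18.5%, 17.4 to 19.6) and 0.922 times its lost share, where the intervals of the shares overlapped. When the 3 embryo lists alone set the ranking, the interval of the ratio for gained peaks reached 1.01 (ratio 0.910, 0.820 to 1.01), and with bins of 500 kb that for lost peaks lay below 1 (0.873, 0.781 to 0.977). Coverage was 74.9 kb per Mb at 6 DAP and 73.3 at 3 DAP in the lowest quintile, and 197 kb per Mb at 6 DAP and 199 at 3 DAP in the highest. Kept regions at least 2-fold lower at 6 DAP made up 0.698% in the lowest and 1.54% in the highest quintile. Those at least 2-fold higher made up 2.57% and 2.59%.

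A bin held a median of 17 gained and 15 lost peaks. Gains outnumbered losses in 202 bins and losses outnumbered gains in 129. The most gained peaks were on chromosome 1 from 11000001 to 12000000, with 32 gained of 122 at 6 DAP and 20 lost of 111 at 3 DAP. Chromosome 10 from 16000001 to 17000000 followed with 30 gained (25.2% of its 6 DAP peaks) and 11 lost (10.9% of its 3 DAP peaks), and chromosome 3 from 23000001 to 24000000 with 29 gained of 118 and 10 lost of 99. The most lost peaks were on chromosome 12 from 15000001 to 16000000, with 23 gained of 127 and 32 lost of 136. Chromosome 1 from 14000001 to 15000000 had 14 gained of 115 and 31 lost of 135 peaks, and chromosome 7 from 6000001 to 7000000 had 21 gained of 111 and 29 lost of 116. These bins were named by number. By share, the highest values of any bin were 32% gained and 34% lost, against 26.2% and 25% in the named bins. In the bin on chromosome 1 with 31 lost peaks, peaks covered 0.902 times as much at 6 DAP as at 3 DAP.

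The amount of turnover from 3 to 6 DAP was set beside that of the neighbouring steps, which share libraries with it and are therefore not independent. Gained peaks made up 24.9% of the later list from 2 to 3 DAP and 16.3% from 6 to 9 DAP, beside 17.1% from 3 to 6 DAP. Lost peaks made up 19.5% of the earlier list from 2 to 3 DAP and 17.3% from 6 to 9 DAP, beside 15.7%. Embryo from 3 to 6 DAP, made of 2 other libraries, had 14.7% gained (14.4 to 15.0) and 11.8% lost (11.5 to 12.1), both below the endosperm shares and with intervals that did not overlap them. The embryo lists were longer, with 53391 peaks at 6 DAP and 51509 at 3 DAP. Gained peaks had a median of 6.30 RPM in endosperm and 5.35 RPM in embryo, and lost peaks 5.92 and 5.71 RPM.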

How the data were processed

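Methylated DNA of ZH-11 endosperm at 6 and 3 DAP was compared, with 1 library a stage, and 5 other ZH-11 lists were used for look-up. The 93-11 samples were not used here. Per the file headers, the authors ran MACS 1.4.2 on each library alone, with no control. Peaks had to pass a p-value of 1e-05 against a local background of 10 kb. Duplicate tags were reduced to 1 per position, fragments were taken as 200 bp, and the genome as 360 Mb. Bowtie2 and MACS are named in the submitters' processing notes. The genome build is not given in the sources used here, so no gene annotation or sequence was used.

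The deposited tag count gives the reads in a peak before any scaling. The deposited score is a scaled negative logarithm of the p-value, and the deposited fold enrichment is a ratio to the local background of the same library. The depth was 7302523 filtered tags at 6 DAP and 7268516 at 3 DAP. RPM was the tag count divided by these totals, times 1000000. Overlap needed 1 bp. For look-up in the other libraries whole overlapping peaks were counted, also where they reached beyond the peak or region. In counts over merged regions, a peak that overlapped several regions was assigned, with all its tags, to the first of them only. Shares have exact Clopper-Pearson intervals at 95%, tag counts exact Poisson intervals and ratios of counts exact conditional intervals, all for counting error only. Ratios of shares have only a range, made by dividing the ends of the 2 share intervals crosswise. Computations used Python 3.11.15, numpy 2.4.6, pandas 2.3.3 and scipy 1.17.1, and the overlap code was checked on simulated data.

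No test between stages was possible. Named items were the 5 gained and 5 lost peaks with the most tags, the 3 longest of each, the 5 highest and 5 lowest ratios among kept regions with at least 50 tags in the higher library, and the 3 bins with the most gained and the most lost peaks. The subsets by score and length and the strongest peaks by score were added after their values were seen. Members and lists were chosen with earlier results of these data known. Alternatives were other limits on score and fold, other overlaps, equal numbers of peaks, other scalings and other bins.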

Additional observations from a re-analysis of the deposited data

Results flagged for a closer look

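Of 5 summary measures compared between 6 and 3 DAP, 4 moved in opposite directions in endosperm and embryo, which is why they are listed here. None of these differences was tested, since each tissue and stage was 1 library. The median peak length differed by 21 bp in endosperm (996 bp at 6 DAP, 975 bp at 3 DAP) and by -18 bp in embryo (873 bp at 6 DAP, 891 bp at 3 DAP). Covered length differed by 0.477 Mb in endosperm (47.3 Mb at 6 DAP, 46.8 Mb at 3 DAP) and by -0.243 Mb in embryo (55.6 Mb at 6 DAP, 55.8 Mb at 3 DAP). The percentage of tags in peaks differed by 0.488 points in endosperm (57.9 at 6 DAP, 57.4 at 3 DAP) and by -0.629 points in embryo (59.0 at 6 DAP, 59.6 at 3 DAP). The median fold enrichment differed by 0.03 in endosperm and by -0.03 in embryo, around medians of 6.63 to 6.66. The median score, the other measure, was higher at 6 DAP in both, by 5.74 in endosperm and by 0.21 in embryo.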

How the results depend on the processing

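Of 52 values recomputed under alternatives, 35 stayed within 1.5 times the reported count or within the reported interval or range, and 17 moved. A reversal was looked for only in the ratios of quintile shares, and 0 of these reversed. Counts and shares could only be labelled as unchanged or moved. One setting, at least 20 tags in the higher library, could change nothing, because every listed peak held at least 24 tags. It returned the same 863 higher and 315 lower regions, and these count among the 35. The alternatives for peaks found at 2 DAP were chosen after seeing the data. Gained peaks outnumbered lost peaks under each overlap and filter tried. With the 36511 highest-scoring peaks taken from each list, 6140 were gained (16.8%, 16.4 to 17.2) and 5893 lost (16.1%, 15.8 to 16.5). The intervals of these 2 shares overlapped, unlike those of the reported shares. With peaks of a score of 100 or more looked up in the whole other list, 1712 of 23750 were gained (7.21%) and 889 of 22904 lost (3.88%). Of both, 70.0% (69.98 of gained, 69.97 of lost) had a peak at 9 DAP. With that score required in every list, 40.2% of gained and 41.6% of lost peaks had a 9 DAP peak and 23.6% of lost peaks a 2 DAP peak. At a fold enrichment of 5 or more, 37.9% of gained and 37.3% of lost peaks had a 9 DAP peak, and 49.6% and 26.5% a 2 DAP peak. The order at 9 DAP was thus opposite to the reported 46.5% of gained and 48.03% of lost peaks, and the intervals overlapped in either setting. With the other list extended by 200 bp, 47.9% of gained peaks had a 9 DAP peak, and with 50% of the peak covered 56.9% had a 2 DAP peak. Kept regions at least 2-fold higher and lower numbered 108 and 11 of 29800 by tags per kb of peak (0.362% and 0.0369%). At a score of 100 or more they numbered 435 and 169 of 18561 (2.34% and 0.911%), beside 2.90% and 1.06% as reported. A stricter limit also left fewer peaks in each list, and why the values moved was not tested. The share of gained and lost peaks in the highest over the lowest quintile of bins stayed below 1 under the 4 alternatives run. Its interval for gained peaks reached 1.01 with bins ranked by the embryo libraries (0.820 to 1.01), and for lost peaks it lay below 1 with bins of 500 kb (0.781 to 0.977). No paired analysis was possible because each stage is 1 library without a replicate number. Depth limits what a missing peak means: a listed peak held at least 24 tags at 6 DAP and at 3 DAP, and the lists give no tag number for a site without one.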

Other observations

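Gained peaks made up 17.1% of the 6 DAP list and lost peaks 15.7% of the 3 DAP list, and their order along the chromosomes is given as a description. Of the gained peaks on the 12 chromosomes, 67.2% had no gained peak as a neighbour in the 6 DAP list, and of the lost peaks 70.9% had no lost peak as a neighbour in the 3 DAP list. Runs of 3 or more consecutive members held 547 gained peaks (8.66%) and 379 lost peaks (6.62%). The longest gained run was 6 peaks on chromosome 8 from 9576904 to 9602781. The longest lost runs were 5 peaks each, on chromosome 3 from 21526040 to 21554396, chromosome 10 from 19404712 to 19434963 and chromosome 11 from 25124589 to 25163168. In none of the other 5 ZH-11 lists was there a peak for 859 gained peaks (13.6%) and 926 lost peaks (16.2%), compared with 350 kept peaks at 6 DAP (1.15%) and 352 at 3 DAP (1.14%).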
